A study of Mus musculus with 6 samples.

Results

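The miR-181 family comprises the mature miRNAs cut from 6 mouse hairpins, miR-181a-1, miR-181b-1, miR-181a-2, miR-181b-2, miR-181c and miR-181d. Every row that names a product of these hairpins, from either arm, was taken from a miRNA-seq table of mouse primary mesangial cells, which support the capillaries of the glomerulus and can contract. The rule found 10 of the 778 mature miRNAs in the table. It picked rows by name and not by a measured value, but the family was chosen with earlier results of these data known. The cells of both groups were primary mesangial cells grown in high glucose (25.5 mM) with 20% foetal bovine serum and used between passages 3 and 6. The Control group (3 libraries) carries the treatment label Control, and the TGF-b1 group (3 libraries) received TGF-β1 (transforming growth factor β1, a profibrotic cytokine) at 10 ng/ml for 72 h. The libraries were collected in triplicate, and nothing in the labels says that they came from separate cultures or animals, so the p-values measure the spread between these samples, which may be technical. The genotype, strain and age of the animals are not given in the sources used here.

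A miRNA hairpin is transcribed within a longer primary transcript and cut by Drosha and Dicer into a short duplex. One strand of the duplex, the guide, is retained by an Argonaute protein and pairs with target mRNAs mainly through its seed, and the other, the passenger, is mostly degraded. In the miR-181 family the 5p arm is the guide, and the family is best known from lymphocyte development and vascular inflammation. MiR-181a and miR-181b each have 2 hairpins, so their guides cannot be assigned to one locus, while the passenger strands differ in sequence and have a row for each hairpin.

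The guide strands are shown first because their sequences decide which of them can be told apart. They are the RefSeq mature sequences, 5′ to 3′, with the seed (bases 2 to 8) in capitals.
mmu-miR-181a-5p: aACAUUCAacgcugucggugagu
mmu-miR-181b-5p: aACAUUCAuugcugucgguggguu
mmu-miR-181c-5p: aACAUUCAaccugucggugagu
mmu-miR-181d-5p: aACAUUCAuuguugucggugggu
All 4 guides shared the seed ACAUUCA, and no other mouse mature miRNA in the RefSeq table had it. Counting from 1 at the 5′ end, miR-181b-5p differed from miR-181d-5p by the single substitution C12U and by 1 base of length. MiR-181a-5p differed from miR-181b-5p by A9U, C10U and A21G. MiR-181c-5p was miR-181a-5p with 1 base, the G at position 11, removed.

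The passenger strands are shown because they name the locus. The capitals again mark bases 2 to 8.
mmu-miR-181a-1-3p: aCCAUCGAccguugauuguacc
mmu-miR-181a-2-3p: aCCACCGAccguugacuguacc
mmu-miR-181c-3p: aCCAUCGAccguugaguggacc
mmu-miR-181b-1-3p: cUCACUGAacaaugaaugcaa
mmu-miR-181b-2-3p: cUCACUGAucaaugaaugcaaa
mmu-miR-181d-3p: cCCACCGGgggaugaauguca
MiR-181a-2-3p differed from miR-181a-1-3p at 2 positions, C5U and C16U, and the first of these lies in the seed. MiR-181c-3p had the same seed as miR-181a-1-3p and differed from it by G16U and G19U. MiR-181b-1-3p and miR-181b-2-3p differed by A9U and by 1 base of length. How reads that match several miRNAs, or match with a mismatch, were assigned is not stated, so the rows that differ by 1 or 2 bases are uncertain to that extent. No miR-181 row was identical in value to another row of the table.

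The hairpins lie in 3 pairs on the NCBIM37 (mm9) mouse genome, in the GENCODE vM1 annotation. On chromosome 1, plus strand, Mir181a-1 spans chr1:139863032-139863118 and Mir181b-1 spans chr1:139863216-139863295, with 98 bp between them, and neither overlaps an annotated gene. On chromosome 2, plus strand, Mir181a-2 spans chr2:38708255-38708330 and Mir181b-2 spans chr2:38709350-38709438, 1020 bp apart. Both lie within an intron of the protein-coding gene Nr6a1, which runs on the opposite strand, and the processed transcript Gm13507 ends 365 bp before Mir181a-2 on the same strand. On chromosome 8, minus strand, Mir181c spans chr8:86702762-86702867 and Mir181d spans chr8:86702615-86702686, 76 bp apart, and neither overlaps an annotated gene. The nearest protein-coding gene to this pair is Nanos3, on the same strand and 2164 bp from Mir181d.

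Levels are given in RPM, which is the read number of a row divided by the library total and scaled to 1000000 reads. The library totals were 16478281 to 17623671 reads in Control and 17086815 to 20169254 reads in TGF-b1, so that 1 read was worth 0.0496 to 0.0607 RPM. The listed miRNAs held 79.5% to 79.8% of all reads in Control and 71.6% to 73.1% of them in TGF-b1. The 408 miRNAs tested had a median log2 change of -0.17 in RPM, which TMM scaling moved to -0.065. The contractile markers miR-143-3p and miR-145-5p summed to 1989 to 2271 RPM in Control and 2112 to 2579 RPM in TGF-b1, and within this sum the rarer miR-145-5p rose from 97.3 to 148 RPM in Control to 231 to 247 RPM in TGF-b1. Of 6 names on a list of blood cell miRNAs, 4 had a row, and these summed to 0.170 to 0.659 RPM in Control and 0.198 to 0.293 RPM in TGF-b1. The 2 endothelial rows, both of miR-126, summed to at most 0.182 RPM in Control and 0.298 RPM in TGF-b1. The 3 muscle rows summed to 3440 to 3646 RPM in Control and 3285 to 3465 RPM in TGF-b1, nearly all of it miR-206-3p, which is not a mesangial marker. Of the 6 tubule epithelium rows, 4 were tested. Of these, 2 rose and 2 fell (adjusted p under 0.05 in limma), beside 17.4% and 31.9% of all tested miRNAs. The untested miR-200c-3p and miR-141-3p reached at most 0.112 and 0.0607 RPM in any library. MiR-192-5p, nearly all of the sum of the 6 rows, was at 290.2 to 304 RPM in Control and 337 to 361 RPM in TGF-b1. MiR-194-5p was at 2.04 to 2.64 RPM in Control and 3.41 to 4.51 RPM in TGF-b1. MiR-200a-3p went from 12.0 to 13.4 RPM down to 0.726 to 1.64 RPM, and miR-200b-3p from 5.52 to 8.13 RPM down to 0.351 to 0.892 RPM. The 3 neuronal rows summed to 327 to 384 RPM in Control and 229 to 240 RPM in TGF-b1, nearly all of it miR-128-3p. MiR-124-3p was at 1.09 to 1.74 RPM in Control and 0.351 to 0.892 RPM in TGF-b1. MiR-9-5p did not fall, with 0.659 to 1.02 RPM in Control and 1.04 to 1.06 RPM in TGF-b1. MiR-122-5p of hepatocytes was at 24.2 to 27.3 RPM in Control and 13.1 to 13.9 RPM in TGF-b1. Members of these 3 lists and miR-145-5p moved with the groups, and their part in the results was not tested. In bulk samples, fewer cells of a type and less RNA per cell cannot be told apart.

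The groups were compared row by row, to see which products of which locus differed after TGF-β1. Of the 10 rows, 8 passed the filter on low reads and were tested. With limma and Benjamini-Hochberg adjustment over all 408 miRNAs, 2 of the 8 rose (miR-181a-5p and miR-181a-2-3p) and 5 fell (miR-181c-5p, miR-181c-3p, miR-181d-5p, miR-181a-1-3p and miR-181b-1-3p) at an adjusted p under 0.05. Over all tested miRNAs, 17.4% rose and 31.9% fell by the same rule. With a log2 change beyond 1 as well, 1 of the 8 rose (miR-181a-2-3p) and 1 fell (miR-181c-3p), where 4.41% and 7.84% of all tested miRNAs did. Control and TGF-b1 libraries were fully separated in 7 of the 8 rows, against 56.9% of all tested miRNAs. The median log2 change of the 8 rows was -0.59, with a range of -1.95 to 1.03. With median-of-ratios scaling 3 of the rows rose and 4 fell, where 23.8% and 22.3% of all tested miRNAs did.

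**Figure D1:**
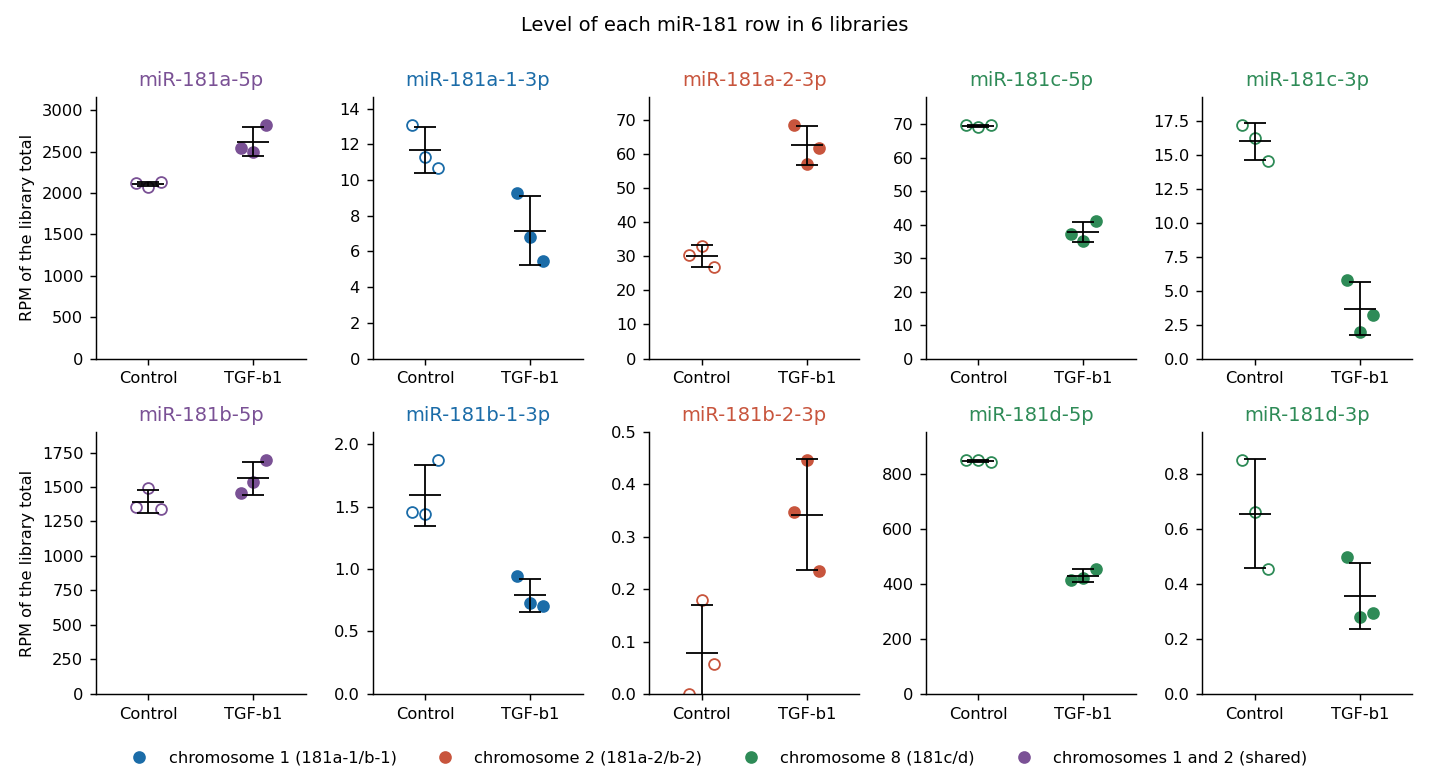
Level of the 10 miR-181 rows in RPM of the library total (linear axes from 0), with 1 point for each of 3 Control (open) and 3 TGF-b1 (filled) libraries, the mean as a long bar and the SD as whiskers, coloured by locus. The chromosome 8 guides sat near 847 and 69.6 RPM in Control and near 429.9 and 37.8 RPM in TGF-b1, while miR-181a-2-3p rose from 30.1 to 62.5 RPM.

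The chromosome 8 locus gave the lower values after TGF-β1 in each of its tested rows. The guide miR-181d-5p had 849, 849 and 842 RPM in Control replicates 1 to 3 and 415, 419 and 456 RPM in TGF-b1 replicates 1 to 3. The Control libraries hardly varied, and every TGF-b1 library was far below them. The mean fell from 847 ± 4.23 to 429.9 ± 22.3 RPM (± SD of 3 libraries), a log2 change of -0.98 ± 0.07 (SE, adjusted p = 4.62e-05 in limma). The guide miR-181c-5p had 69.9, 69.3 and 69.7 RPM in Control and 37.3, 35.2 and 41.0 RPM in TGF-b1. Its groups did not overlap either, and its mean fell from 69.6 ± 0.309 to 37.8 ± 2.91 RPM (± SD of 3 libraries), with a log2 change of -0.87 ± 0.11 (SE, adjusted p = 0.000657 in limma). Both guides passed at an adjusted p under 0.05 under every scaling, filter and test tried and without any 1 library.

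The 2 guides of chromosome 8 stayed close to one ratio. There were 12.2 ± 0.0832 reads of miR-181d-5p for each read of miR-181c-5p in Control samples against 11.4 ± 0.455 in TGF-β1-treated samples (± SD of 3 libraries). The Control libraries held 1152, 1156 and 1228 reads of miR-181c-5p. Counting error at such numbers is wider than the Control SD of this ratio, or of miR-181c-5p itself, so these SDs understate the uncertainty. On the log2(RPM + 1) scale miR-181c-5p minus miR-181d-5p was -3.58 ± 0.0098 in Control samples against -3.47 ± 0.0549 in TGF-β1-treated samples (± SD of 3 libraries). The shift of 0.11 was small beside the change of either guide, although the groups did not overlap and the exact two-sided permutation p of 0.1 was the smallest that 3 against 3 libraries allow (0.1 after adjustment over 4 pairs).

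The passenger miR-181c-3p changed further than its guide. It had 17.2, 16.2 and 14.5 RPM in Control and 5.80, 1.95 and 3.22 RPM in TGF-b1, from 284, 271 and 256 reads and 117, 35 and 55 reads. TGF-b1 replicate 1, the deepest library, kept the highest level of the 3 treated libraries, but it too lay below every Control library. The mean fell from 16.0 ± 1.37 to 3.66 ± 1.96 RPM (± SD of 3 libraries), to 0.229 of the Control mean. Its log2 change was -1.95 ± 0.28 (SE, adjusted p = 0.00115 in limma), the 7th lowest of the 408, and it ranged from -2.26 without TGF-b1 replicate 1 to -1.66 without TGF-b1 replicate 2. With a pseudocount of 10 it was -0.94 and still passed at an adjusted p under 0.05. There were 4.37 ± 0.382 reads of miR-181c-5p for each read of miR-181c-3p in Control, and 12.4 ± 5.81 after TGF-β1 (± SD of 3 libraries). In a limma fit of the 3p to 5p ratio over 104 pairs of arms, of which 34.6% changed at an adjusted p under 0.05, the log2 ratio of miR-181c-3p to miR-181c-5p shifted by -1.08 ± 0.28 (SE, adjusted p = 0.00957 in limma). Without TGF-b1 replicate 2 the limma adjusted p of this shift was 0.0783, and with a pseudocount of 10 the shift was -0.20 and did not pass (adjusted p = 0.277 in limma).

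MiR-181d-3p was too rare to be tested. It had 14, 11 and 8 reads in Control and 10, 5 and 5 reads in TGF-b1, which is 0.454 to 0.850 RPM and 0.279 to 0.496 RPM, and the groups overlapped. The ratio of TGF-b1 to Control over the summed reads was 0.558, with an exact 95% interval of 0.303 to 1.001 that covers counting error only.

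The hairpins of chromosome 1 and chromosome 2 share their guides. MiR-181a-5p, the most abundant member, had 2118, 2076 and 2132 RPM in Control and 2542, 2497 and 2825 RPM in TGF-b1. Every TGF-b1 library was above every Control library. Its mean rose from 2109 ± 29.0 to 2621 ± 178 RPM (± SD of 3 libraries), a log2 change of 0.31 ± 0.07 (SE, adjusted p = 0.00645 in limma), or 0.46 with TMM scaling.

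MiR-181b-5p, the guide of the partner hairpins, had 1355, 1492 and 1337 RPM in Control and 1456, 1535 and 1695 RPM in TGF-b1. Control replicate 2 lay above TGF-b1 replicate 1, so the groups overlapped. The means were 1395 ± 84.6 and 1562 ± 122 RPM (± SD of 3 libraries), with a log2 change of 0.16 ± 0.08 (SE, adjusted p = 0.141 in limma) that did not pass. It passed with TMM scaling, where the log2 change was 0.31 (adjusted p = 0.0186 in limma), with median-of-ratios scaling (0.38, adjusted p = 0.00773 in limma) and after scaling to the summed rows (0.30, adjusted p = 0.0193 in limma), and did not with upper-quartile scaling (0.30, adjusted p = 0.0636 in limma). MiR-181b-5p and miR-181d-5p, which are 1 substitution and 1 base of length apart, thus had log2 changes of 0.16 and -0.98.

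**Figure D2:**
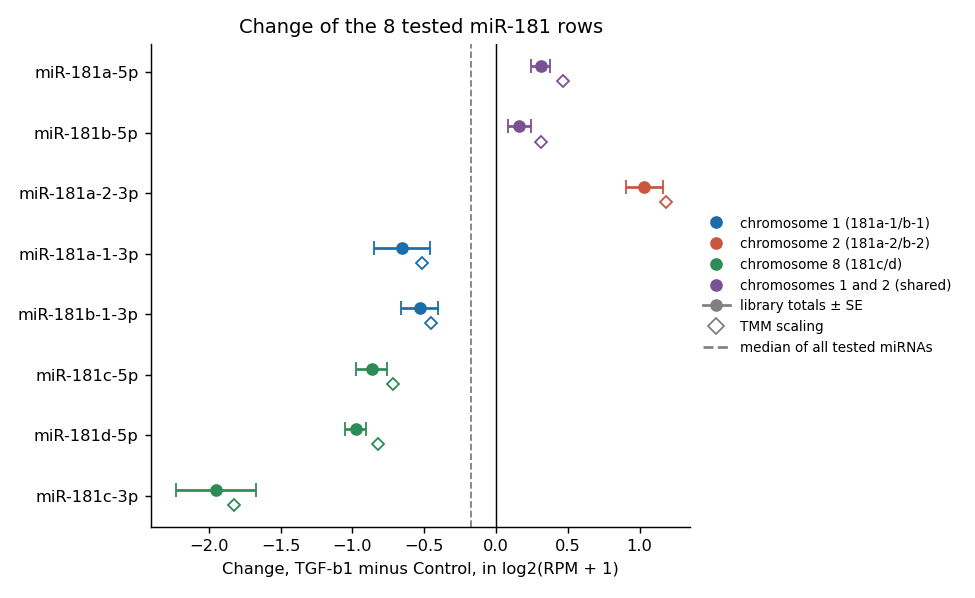
Change of the 8 tested rows in log2(RPM + 1), TGF-b1 minus Control, as circles with SE bars on the scale of library totals and as diamonds after TMM scaling, coloured by locus; the dashed line is the median of all 408 tested miRNAs (-0.17). The chromosome 2 row lies at 1.03, the chromosome 1 rows at -0.66 and -0.53, and the chromosome 8 rows between -0.87 and -1.95.

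The passenger rows of the duplicated hairpins moved apart. MiR-181a-2-3p, from chromosome 2, had 30.4, 33.0 and 26.7 RPM in Control and 68.6, 57.1 and 61.9 RPM in TGF-b1. The lowest treated library was well above the highest Control library. The mean rose from 30.1 ± 3.17 to 62.5 ± 5.78 RPM (± SD of 3 libraries), a ratio of 2.08 and a log2 change of 1.03 ± 0.13 (SE, adjusted p = 0.000657 in limma), and it passed at an adjusted p under 0.05 under every alternative tried. MiR-181a-1-3p, from chromosome 1, had 13.1, 11.3 and 10.7 RPM in Control and 9.27, 6.81 and 5.44 RPM in TGF-b1. The groups did not overlap, although TGF-b1 replicate 1 came close to the lowest Control library. The mean fell from 11.7 ± 1.27 to 7.17 ± 1.94 RPM (± SD of 3 libraries), a log2 change of -0.66 ± 0.19 (SE, adjusted p = 0.0229 in limma).

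The fall of miR-181a-1-3p was the least stable of the calls. Without Control replicate 1 its limma adjusted p was 0.0842, without Control replicate 2 it was 0.0633, without TGF-b1 replicate 2 it was 0.0667 and without TGF-b1 replicate 3 it was 0.0629. It passed with TMM scaling (-0.52, adjusted p = 0.0461 in limma) and did not with median-of-ratios scaling (-0.46, adjusted p = 0.0778 in limma) or after scaling to the summed rows (-0.53, adjusted p = 0.0579 in limma).

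The miR-181b passengers were rare. MiR-181b-1-3p, from chromosome 1, had 24, 24 and 33 reads in Control and 19, 13 and 12 reads in TGF-b1. In RPM these were 1.46, 1.44 and 1.87 against 0.942, 0.726 and 0.702, without overlap. The mean fell from 1.59 ± 0.245 to 0.790 ± 0.132 RPM (± SD of 3 libraries), with a log2 change of -0.53 ± 0.13 (SE, adjusted p = 0.0106 in limma) that is understated at this level by the pseudocount of 1. DESeq2 on the recovered reads did not call it (adjusted p = 0.241). MiR-181b-2-3p, from chromosome 2, had 0, 3 and 1 reads in Control and 7, 8 and 4 reads in TGF-b1, too few for the filter. Its libraries did not overlap, and the ratio of TGF-b1 to Control over the summed reads was 4.37, with an exact 95% interval of 1.45 to 17.7 that covers counting error only.

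Within each library the 3 loci were set against one another through their passenger rows, which removes the scaling of the library up to the effect of the pseudocount. On the log2(RPM + 1) scale, miR-181a-2-3p minus miR-181a-1-3p was 1.29 ± 0.163 in Control samples against 2.98 ± 0.274 in TGF-β1-treated samples (± SD of 3 libraries), a shift of 1.69. As a share of both rows, miR-181a-2-3p took 72.0% ± 2.38 in Control samples against 89.8% ± 1.95 in TGF-β1-treated samples (± SD of 3 libraries). The chromosome 2 locus thus gave most of the miR-181a passenger reads in both groups, and more of them after TGF-β1. The rarer miR-181b passengers, on few reads, had 4.68% ± 5.76 from chromosome 2 in Control samples against 30.0% ± 7.07 in TGF-β1-treated samples (± SD of 3 libraries).

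The remaining locus differences shifted as well. MiR-181a-2-3p minus miR-181c-3p went from 0.87 ± 0.102 to 3.85 ± 0.473 on the log2(RPM + 1) scale (± SD of 3 libraries), a shift of 2.98. MiR-181a-1-3p minus miR-181c-3p went from -0.42 ± 0.0614 to 0.87 ± 0.462 (± SD of 3 libraries), a shift of 1.29, so the order of these rows was exchanged in every treated library. For each of the 3 shifts the groups did not overlap, and an exact two-sided permutation test gave p = 0.1, its smallest possible value, and 0.1 after adjustment over the 4 pairs. This design cannot reach an exact p under 0.05.

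Set against the shared guide, the passengers of the 2 loci moved in opposite directions. The log2 ratio of miR-181a-2-3p to miR-181a-5p shifted by 0.72 ± 0.20 (SE, adjusted p = 0.0113 in limma) and that of miR-181a-1-3p to miR-181a-5p by -0.97 ± 0.23 (SE, adjusted p = 0.00593 in limma). The ratio of miR-181b-1-3p to miR-181b-5p shifted by -0.69 ± 0.23 (SE, adjusted p = 0.0284 in limma). With miR-181c, all 4 arm ratios of the family passed, where 34.6% of the 104 pairs did. The 2 ratios of miR-181a share a denominator, so the distance between them repeats the locus shift of 1.69 and adds no evidence. The guides of miR-181a and miR-181b come from 2 hairpins each. Their ratios therefore mix the share of each locus with the use of the arms, and cannot show a change of arm use alone. The number that passed fell to 0 without TGF-b1 replicate 2, with limma adjusted p-values between 0.0512 and 0.107. The miR-181b-1-3p ratio also missed the threshold without Control replicate 1, 2 or 3 (adjusted p = 0.105, 0.0516 and 0.116 in limma). With a pseudocount of 10, which damps rare passengers, only the 2 ratios of miR-181a passed.

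**Figure D3:**
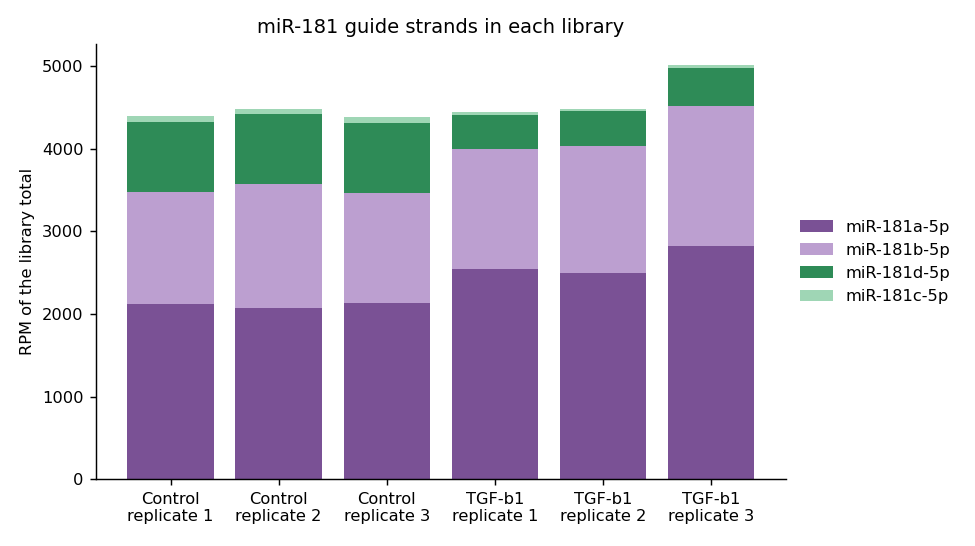
Stacked RPM of the 4 miR-181 guide strands in each of the 6 libraries, on a linear axis from 0. The sum averaged 4419 RPM in Control and 4651 RPM in TGF-b1, while the green part, from chromosome 8, went from 20.7% to 10.1% of it.

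The 4 guides carry 1 seed, so their sum and its make-up were compared. The summed guides had 4392, 4486 and 4380 RPM in Control and 4450, 4486 and 5016 RPM in TGF-b1. TGF-b1 replicate 1 lay within the Control range, replicate 2 at its upper edge and replicate 3 well above it. The means were 4419 ± 57.7 and 4651 ± 317 RPM (± SD of 3 libraries), a difference of 231 RPM (exact two-sided permutation p = 0.2, n = 3), which was 48.6 RPM without TGF-b1 replicate 3. The difference depended on the scale. With TMM scaling it was 703 RPM, from 4198 ± 277 to 4901 ± 263 (± SD of 3 libraries), and as a share of the listed reads the sum went from 0.555% ± 0.0080 to 0.643% ± 0.0446, each without overlap (exact two-sided permutation p = 0.1).

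The make-up of the sum shifted from chromosome 8 to the shared guides. MiR-181d-5p took 19.2% ± 0.216 of the guide reads in Control and 9.25% ± 0.147 in TGF-b1, and miR-181c-5p took 1.58% ± 0.0267 and 0.813% ± 0.0265 (± SD of 3 libraries). MiR-181a-5p took 47.7% ± 1.27 in Control samples against 56.4% ± 0.735 in TGF-β1-treated samples (± SD of 3 libraries). For these 3 shares the groups did not overlap (exact two-sided permutation p = 0.1), and p was 0.167 after adjustment over 5 measures. MiR-181b-5p took 31.5% ± 1.49 and 33.6% ± 0.767 (± SD of 3 libraries), with overlap (exact two-sided permutation p = 0.2). In RPM, the chromosome 8 guides together went from 916 ± 4.23 to 468 ± 25.0, and miR-181a-5p plus miR-181b-5p from 3503 ± 55.9 to 4183 ± 292 (± SD of 3 libraries).

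**Figure D4:**
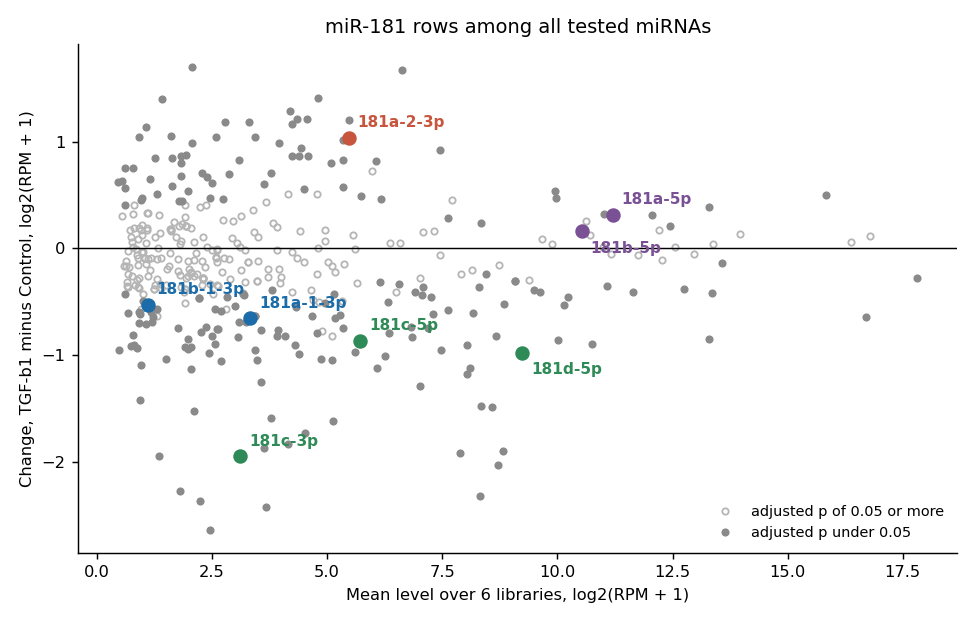
Change in log2(RPM + 1), TGF-b1 minus Control, against the mean level over the 6 libraries, for the 408 tested miRNAs (open grey, adjusted p of 0.05 or more; filled grey, under 0.05), with the miR-181 rows coloured by locus. MiR-181a-5p, miR-181b-5p and miR-181d-5p lie to the right, from -0.98 to 0.31, and the rarer miR-181c-5p and the passengers lie to the left, from -1.95 to 1.03.

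Other miRNAs near the loci were examined as well. Within 50 kb, hairpins with rows of their own in the table were annotated only beside the chromosome 8 pair, where Mir23a, Mir27a and Mir24-2 lie on the opposite strand, 29550 to 29847 bp from Mir181c. These hairpins form the miR-23a/27a/24-2 cluster, which is known to be transcribed as a single primary RNA. Its rows did not follow one direction. MiR-27a-3p, the guide of Mir27a, fell from 875.5 ± 82.9 to 251 ± 122 RPM (± SD of 3 libraries), a log2 change of -1.89 ± 0.28 (SE, adjusted p = 0.00134 in limma). Like miR-181c-3p it was highest in replicate 1 among the treated libraries, with 393, 185 and 177 RPM. This was not particular to neighbours, since rows from other loci were also highest there. Among them was miR-101b-3p, with 1849, 1069 and 1040 RPM in TGF-b1 replicates 1 to 3. MiR-23a-3p rose from 828 ± 112 to 1199 ± 114 RPM (± SD of 3 libraries), a log2 change of 0.54 (adjusted p = 0.00711 in limma). The passengers miR-23a-5p and miR-27a-5p rose by 0.87 and 0.59 on the log2 scale (adjusted p = 0.00314 and 0.0248 in limma). MiR-24-2-5p and miR-24-3p, of which the latter also comes from another hairpin, had log2 changes of 0.053 and 0.086 and did not pass (adjusted p = 0.826 and 0.504 in limma).

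The miRNAs whose levels ran most like miR-181c-3p, miR-181a-2-3p and miR-181a-1-3p over the 6 libraries were found by Pearson's r on log2(RPM + 1), as a description over libraries that share 1 contrast. For miR-181c-3p they were miR-27b-3p (r = 0.994), miR-27b-5p (0.992) and miR-130b-3p (0.989). MiR-27b-3p, which comes from another hairpin than miR-27a-3p but is nearly identical to it, so that the authors' counting could share reads between them, went from 840.2 ± 49.4 to 221 ± 110 RPM (± SD of 3 libraries). For miR-181a-2-3p they were miR-183-3p (0.997), miR-192-5p (0.9953) and miR-365-2-5p (0.991). For miR-181a-1-3p they were miR-107-3p (0.986), miR-3089-3p (0.984) and miR-196a-2-3p (0.978).

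Of the miRNAs with 2 hairpins and a passenger row for each, 5 pairs averaged 1 RPM or more in both rows. The log2 changes of miR-181a-1-3p and miR-181a-2-3p were 1.69 apart, the widest of the 5. The passengers of miR-365 were 1.08 apart, those of miR-125b 0.87, those of miR-196a 0.34 and those of miR-30c 0.050. The pseudocount of 1 shrinks these distances for rare rows. MiR-125b-2-3p, at 2.12 RPM in Control and 1.02 RPM in TGF-b1, changed by -0.64 with it. As a log2 ratio of means the change was -1.05, so the order of miR-365 and miR-125b depends on the pseudocount. Of a list of 25 miRNAs known from TGF-β responses of kidney cells, 24 had a row and 20 were tested, of which 5 rose and 10 fell, with a median log2 change of -0.42, beside the 17.4% that rose, the 31.9% that fell and the median of -0.17 over all tested miRNAs. That list was chosen with earlier results of these data known. Several of its members are among the miRNAs the study reported as changed in these same libraries. Its counts are therefore a description and no test of whether such miRNAs changed more than others. No miR-181 member is on that list. The study itself reported miR-181a-2-3p as raised and miR-181c-3p as lowered in these same libraries.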

How the data were processed

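Small RNA libraries of 3 Control and 3 TGF-b1 samples were analysed. Per the study's methods, adaptors, short and low-quality reads were removed and the reads were compared with the known miRNAs of miRBase with Bowtie. The table the authors deposited lists 778 miRNAs in a unit headed TPM, which is RPM of the library total, since no length scaling applies. Library totals were recovered as the integers that turn the deposited values into whole reads, and 100% of values were whole within a tolerance of 0.002. No pair of libraries agreed within sampling noise (chi-square per degree of freedom of 43.1 to 145 within groups).

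Rows were kept by filterByExpr of edgeR 4.0.16 (minimum count 10, 408 kept) and tested with limma 3.58.1 (R 4.3.3, trended prior) on log2(RPM + 1), with group as the only term and Benjamini-Hochberg adjustment. The pseudocount understates changes of rare miRNAs. Pairs of arms needed a mean of at least 1 RPM each. Single values were compared by exact two-sided permutation in scipy 1.17.1. The fits were first run on simulated reads with the same dispersion (spread beyond counting error) for every row. Real rows differ in spread, so that run does not measure the error rates of the fits here. edgeR on the recovered reads with library totals called 69 miRNAs higher and 125 lower, against 71 and 130 by limma. The alternatives tried were other scalings (TMM, upper quartile, median of ratios, summed rows), pseudocounts of 0.1 and 10, other filters, edgeR, DESeq2 1.42.0, a replicate block and each library left out.

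Hairpin positions are from GENCODE vM1 (NCBIM37); mature sequences are from RefSeq (GRCm38.p6), matched by name for all 10 rows and found in the NCBIM37 hairpins. The miRNAs named were every miR-181 row, the 3 most alike to each of 3 locus-naming rows, those within 50 kb, and the copy-naming pairs. Other lists are given as counts. The members and lists were chosen with earlier results of these data known.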

Additional observations from a re-analysis of the deposited data

How the results depend on the processing

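No result changed direction under any alternative. With an absolute log2 change above 1 as a further condition, 1 miR-181 row was higher and 1 lower, in place of 2 and 5. DESeq2 called 3 higher, adding miR-181b-5p (adjusted p = 0.0182), where it called 18.4% of all tested miRNAs higher. DESeq2 called 3 lower, losing miR-181a-1-3p (adjusted p = 0.132) and miR-181b-1-3p (0.241). It called 17.6% of all tested miRNAs lower, against 31.9% in limma. With TMM, edgeR also called miR-181b-5p higher (adjusted p = 0.0192) and did not call miR-181a-1-3p (0.0581). Of the 4 arm ratios, 2 passed with a pseudocount of 10. Where both arms had to reach 10 RPM, only the ratio of miR-181a-2-3p to miR-181a-5p was tested, and it passed (adjusted p = 0.0144 in limma). Leaving out each library in turn gave 2 rows higher, 4 to 5 lower and 0 to 4 arm ratios, the 0 without TGF-b1 replicate 2. Same-numbered libraries did not deviate together (correlations of -0.084, -0.208 and -0.345), so the numbers were not taken as pairs; a replicate block left 2 rows higher and 5 lower, and 3 arm ratios. For the changes of single rows and single arm ratios, 156 values stayed on their side of the threshold, 5 crossed into it and 19 out of it. Rows under about 1 RPM rest on few reads, and a count of 0 allows for up to 3 reads, or 0.149 to 0.182 RPM.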
